A study of Homo sapiens with 8 samples.

Results

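Expression of 9 tight junction genes was followed in DU145, a prostate carcinoma line of epithelial origin established from a brain metastasis. They are the claudins CLDN1, CLDN3, CLDN4, CLDN7 and CLDN12, the tetraspan proteins OCLN (occludin) and MARVELD2 (tricellulin), the immunoglobulin-family protein F11R (JAM-A) and the scaffold TJP1 (ZO-1). They were taken by symbol, as 9 of the 32066 genes in the table of counts, and all 9 were abundant enough to be tested among 15665 genes. RNA from 4 libraries of control cells and 4 libraries of cells carrying exogenous SOX11 was sequenced. SOX11 is a transcription factor of the SOX family. All cells of both groups were DU145 grown in DMEM with 10% FBS. The labels do not state how SOX11 was introduced, what the control cells carried, or whether the cells were 1 clone or a pool. The labels do not say whether the 4 libraries of a group came from separate cultures, so p-values measure only the spread between these libraries, which may be technical.

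Tight junctions seal the space between neighbouring epithelial cells near their apical border. Claudins are four-pass membrane proteins that pair across the cell gap and set which ions pass, and different claudins make a barrier or a pore. Occludin lies in the same strands, tricellulin gathers where corners of cells meet, and JAM-A is an adhesion molecule. ZO-1 holds these proteins to actin from inside the cell. Transcription factors of the SNAI and ZEB families, which bind CAGGTG boxes, are known repressors of claudin and occludin genes. SOX proteins bind short AT-rich sites through their HMG box. All values here are RNA levels, and in bulk RNA fewer cells that express a gene and less RNA per cell cannot be told apart.

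The stretches upstream of 6 members are shown because they pair members that rose with neighbours or relatives that did not. They come from RefSeq (build GRCh38.p14), which had an entry for 8 of the 9 members. Each is the 250 bases before a transcription start, 5′ to 3′ on the gene's strand, and capitals mark a match to AACAAAG or CAGGTG on either strand. CLDN1 (chr3:190322447-190322696, minus strand) and MARVELD2 (chr5:69414866-69415115, plus strand) hold no match. CLDN4 is at chr7:73830746-73830995, plus strand, and CLDN3 at chr7:73770271-73770520, minus strand. The CLDN3 stretch shown holds no match either, since its only CAGGTG lies after the start. OCLN is at chr5:69492297-69492546, plus strand, and the second CLDN7 start at chr17:7262479-7262728, minus strand.
CLDN1: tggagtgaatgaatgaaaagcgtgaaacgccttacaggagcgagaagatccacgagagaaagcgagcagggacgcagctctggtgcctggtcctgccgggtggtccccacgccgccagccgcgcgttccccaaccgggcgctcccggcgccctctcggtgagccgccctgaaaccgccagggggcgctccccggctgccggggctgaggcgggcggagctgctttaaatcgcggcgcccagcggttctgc
CLDN4: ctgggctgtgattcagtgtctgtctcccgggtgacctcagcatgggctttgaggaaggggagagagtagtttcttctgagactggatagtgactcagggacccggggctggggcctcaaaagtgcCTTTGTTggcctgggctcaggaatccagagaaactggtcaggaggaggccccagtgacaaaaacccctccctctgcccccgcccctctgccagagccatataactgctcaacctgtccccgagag
CLDN3: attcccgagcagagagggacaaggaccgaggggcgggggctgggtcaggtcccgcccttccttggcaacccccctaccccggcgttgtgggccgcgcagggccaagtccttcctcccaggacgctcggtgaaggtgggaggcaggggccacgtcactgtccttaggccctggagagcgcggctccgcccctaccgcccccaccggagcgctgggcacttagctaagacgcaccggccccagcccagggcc
MARVELD2: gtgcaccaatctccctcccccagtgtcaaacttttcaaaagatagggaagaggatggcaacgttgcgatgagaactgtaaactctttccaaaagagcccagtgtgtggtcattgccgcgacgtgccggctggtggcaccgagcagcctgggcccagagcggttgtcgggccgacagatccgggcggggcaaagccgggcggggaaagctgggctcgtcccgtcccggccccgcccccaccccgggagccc
OCLN: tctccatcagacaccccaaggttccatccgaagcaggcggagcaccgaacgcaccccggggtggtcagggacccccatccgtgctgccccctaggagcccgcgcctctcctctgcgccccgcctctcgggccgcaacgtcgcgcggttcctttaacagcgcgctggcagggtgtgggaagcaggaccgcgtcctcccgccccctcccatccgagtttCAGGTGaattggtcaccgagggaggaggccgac
CLDN7: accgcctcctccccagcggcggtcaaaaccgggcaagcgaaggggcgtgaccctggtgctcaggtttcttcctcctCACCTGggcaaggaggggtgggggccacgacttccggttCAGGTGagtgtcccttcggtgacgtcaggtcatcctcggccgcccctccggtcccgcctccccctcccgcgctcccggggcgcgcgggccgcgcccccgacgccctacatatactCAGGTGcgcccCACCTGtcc

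Motifs were searched in the whole 300-base windows, which run on to 50 bases after the start. The SOX-type words were AACAAT and AACAAAG, and the box bound by SNAI and ZEB proteins was CAGGTG, each on both strands. Of all 35116 RefSeq windows of that length, 10.1% held AACAAT, 5.20% held AACAAAG and 20.6% held CAGGTG. Of the 13 windows of the 8 members, 1 held AACAAT, 2 held AACAAAG and 5, from 4 members, held CAGGTG. CLDN4 held AACAAAG once, at position -125 from its start, printed as its reverse complement in capitals above. The first CLDN7 window, which is not shown, held none of the 3 words. The second CLDN7 window held CAGGTG 5 times, of which 4 lie in the stretch shown. CLDN3 held it at position 37, and OCLN at position -33 from its first start and at -133 and 36 from its second. TJP1 held it at position -88 from its first start. Of 4 TJP1 windows, the last held both SOX-type words, and no TJP1 stretch is shown above. The windows of CLDN1, MARVELD2 and CLDN12 held none of the 3 words. A match is a description of the letters, and no binding was measured.

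On the GRCh38 build with GENCODE 29, CLDN3 (chromosome 7, 73768997 to 73770270, minus strand, 1 exon) lies 29271 bases from CLDN4 (chromosome 7, 73799542 to 73832693, plus strand). The RefSeq start of CLDN4 used for the stretch above is at 73830996, inside that span and farther from CLDN3. MARVELD2 (chromosome 5, 69415065 to 69444330, plus strand) lies 47961 bases from OCLN (chromosome 5, 69492292 to 69558104, plus strand). CLDN1 spans 190305701 to 190322475 on the minus strand of chromosome 3. CLDN7 spans 7259903 to 7263983 on the minus strand of chromosome 17, and CLDN12 spans 90383721 to 90513402 on the plus strand of chromosome 7. TJP1 spans 29699367 to 29968865 on the minus strand of chromosome 15, and F11R spans 160995211 to 161021348 on the minus strand of chromosome 1. Of the 32066 identifiers 30159 are in GENCODE 29, so these spans may differ from those the authors counted on.

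The labels were checked first. SOX11 had 0 counts in every control library and 303 to 317 counts in the SOX11 libraries, which is at least 404-fold higher against a floor of 3 counts over the control group. Library totals ran from 14641250 to 18706095 counts. All 8 of the epithelial markers reached a mean of 1 CPM (TMM-scaled CPM, the count relative to the size of the library), and their summed level was 3014 to 3535 CPM in control cells against 2648 to 2724 CPM with SOX11. Of these 8 markers 5 were called lower and 1 higher, and their part in the results below was not tested. The fibroblast list summed to 3.32 to 5.42 CPM in control cells against 5.83 to 7.70 CPM with SOX11, with 4 of 6 genes in the table. COL1A1 alone of that list reached 1 CPM, and it rose by 0.72 on the log2 scale (edgeR adjusted p = 0.00053); its part in the results below was not tested. The blood list (3 of 6 in the table) and the endothelial list (5 of 6) each stayed below 1 CPM in every library, at 0.701 to 0.891 against 0.455 to 0.945 CPM and 0.378 to 0.830 against 0.182 to 0.531 CPM.

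SOX11 replicate 1 stood apart from the other 7 libraries. It held 36 genes with at least 10 counts there and at most 2 in each other library, and no other library held such a gene. The 8 luminal prostate genes reported here, chosen after the data were seen, had 0 to 4 counts in each of the other 7 libraries and 18 to 161 counts in SOX11 replicate 1. They include KLK2 (a kallikrein, 161 counts), KLK3 (which encodes PSA, 95 counts) and GRHL2 (a transcription factor of epithelial junction genes, 40 counts). Of the other 7 libraries, control replicate 4 held the most counts of KLK3 (4), KLK2 (3), FOLH1 (3), HOXB13 (2) and GRHL2 (2). It held 0 counts of TMPRSS2, AZGP1 and RAB25. By the limit of 2 counts elsewhere, KLK2, KLK3 and FOLH1 are not among the 36 genes. Within the SOX11 group, SOX11 replicate 1 was the highest for CLDN3, CLDN4, CLDN7 and MARVELD2, the lowest for OCLN and TJP1, and inside the range of the others for CLDN1, CLDN12 and F11R. The part of this RNA in the levels of the members was not tested, and each call among the 9 members is given with and without that library.

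**Figure D1:**
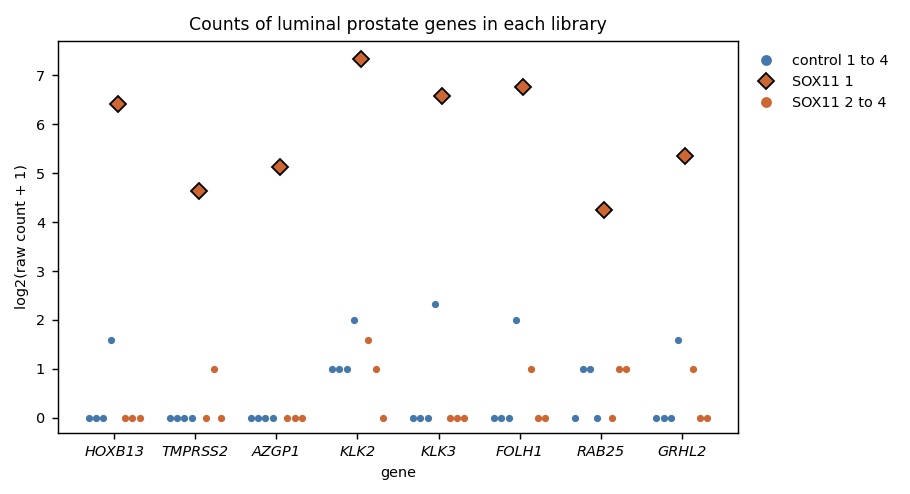
Log2 of raw count plus 1 (vertical axis) for 8 luminal prostate genes in each of the 8 libraries; blue points are control, orange are SOX11, and the black-edged diamond is SOX11 replicate 1. The diamond lies at 18 to 161 counts and every other point at 4 counts or fewer.

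Against control, 4 of the 9 members were higher in SOX11 cells and none was lower (edgeR, adjusted p below 0.05). CLDN4 rose 1.99-fold, CLDN1 1.36-fold, MARVELD2 1.28-fold and F11R 1.13-fold. CLDN3, CLDN7, CLDN12, OCLN and TJP1 were not called. Of all genes tested, 20.0% were called in either direction, 10.3% higher and 9.67% lower. The groups did not overlap for 3 of the 9 members, against 21.1% of all genes. The median log2 fold change over the 9 members was 0.03, beside 0.0011 over all genes tested. Without SOX11 replicate 1, 16.4% of genes and 2 of the 9 members, CLDN1 and CLDN4, were called.

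**Figure D2:**
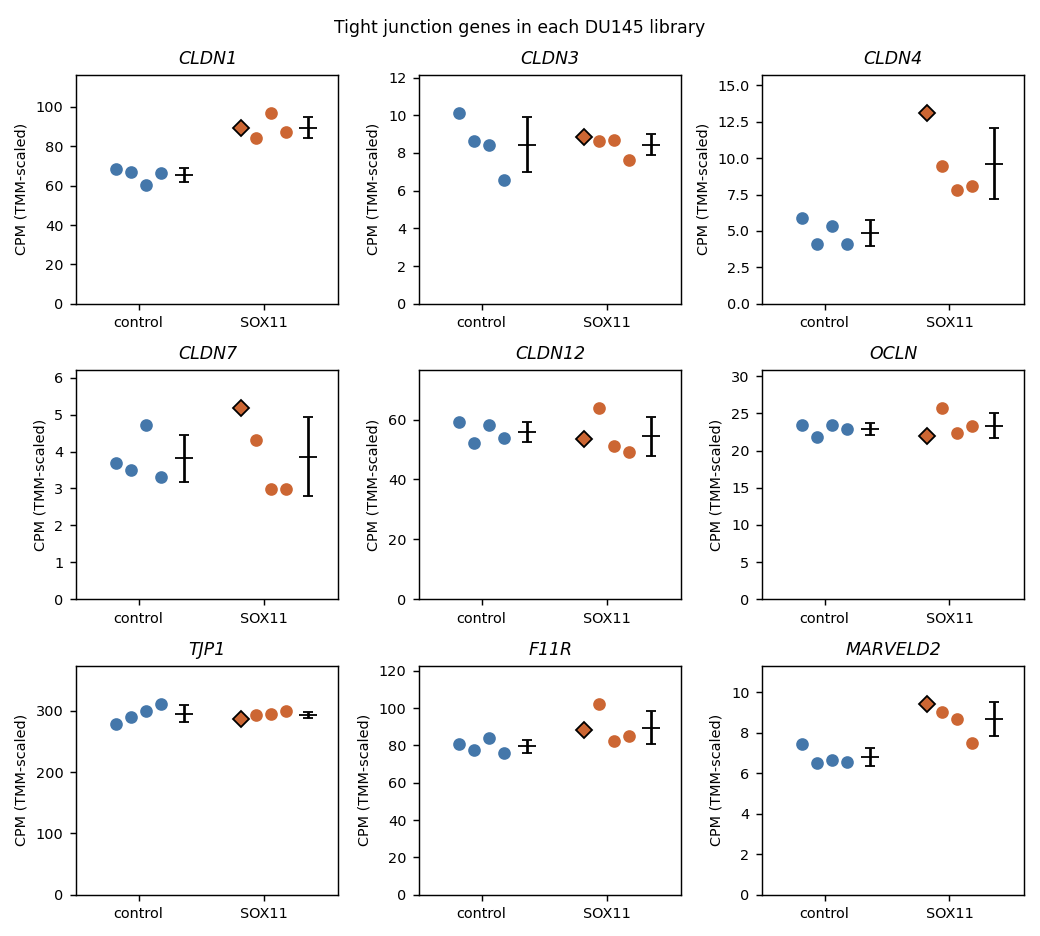
TMM-scaled CPM (vertical axis, from 0) of the 9 members in the 4 control (blue) and 4 SOX11 (orange) libraries; bars give mean ± SD and the diamond is SOX11 replicate 1. The groups are apart for CLDN1, CLDN4 and MARVELD2 and overlap for the other 6.

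Among the claudins, CLDN1, a barrier-forming claudin of skin and many epithelia, was at 68.7, 66.7, 60.5 and 66.6 CPM in the control libraries and at 89.2, 84.4, 97.1 and 87.2 CPM in the SOX11 libraries. Every SOX11 library lay above every control library. The means were 65.6 ± 3.53 and 89.5 ± 5.44 CPM (SD, n = 4 each), a log2 fold change of 0.45 ± 0.0460 (SE; 95% interval 0.35 to 0.54; edgeR adjusted p = 1.66e-08). Without SOX11 replicate 1 the log2 fold change was 0.45 (adjusted p = 5.13e-07).

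CLDN4, which with CLDN3 is a receptor for Clostridium perfringens enterotoxin, was low, at 5.86, 4.10, 5.35 and 4.08 CPM in control and 13.1, 9.45, 7.83 and 8.06 CPM in SOX11 libraries. These values rest on 59 to 92 counts per control library and 124 to 213 per SOX11 library. The groups were apart, and SOX11 replicate 1 was the highest of the 8. The log2 fold change was 0.99 ± 0.172 (SE; 95% interval 0.63 to 1.36; adjusted p = 0.000676) with means of 4.85 ± 0.899 and 9.61 ± 2.44 CPM (SD, n = 4 each). Without SOX11 replicate 1 it was 0.81 ± 0.132 (SE; adjusted p = 8.64e-05).

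CLDN3, a barrier-forming claudin of glandular epithelia, was at 10.1, 8.64, 8.43 and 6.57 CPM in control and 8.87, 8.62, 8.68 and 7.60 CPM in SOX11 libraries. The SOX11 values fell inside the control range. The log2 fold change was -0.0041 (95% interval -0.23 to 0.22; adjusted p = 0.985). CLDN7, a partner of EPCAM at the lateral membrane, was at 3.70, 3.51, 4.73 and 3.32 CPM in control and 5.17, 4.31, 2.97 and 2.99 CPM in SOX11 libraries. The SOX11 libraries lay on both sides of the control range, with replicates 3 and 4 below it and replicate 1 above it. The log2 fold change was 0.03 (95% interval -0.32 to 0.37; adjusted p = 0.935), and -0.14 without SOX11 replicate 1. CLDN12, a claudin that lacks the usual C-terminal binding motif for ZO proteins, was at 52.2 to 59.3 CPM in control cells and 49.2 to 63.8 CPM with SOX11, with a log2 fold change of -0.04 (95% interval -0.19 to 0.11; adjusted p = 0.777).

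Of the MARVEL-domain proteins, MARVELD2 was at 7.46, 6.48, 6.65 and 6.57 CPM in control and 9.42, 9.03, 8.68 and 7.47 CPM in SOX11 libraries. The groups were apart, with the lowest SOX11 library next to the highest control library. The log2 fold change was 0.35 ± 0.103 (SE; 95% interval 0.14 to 0.56; adjusted p = 0.0141). Without SOX11 replicate 1 it was 0.31 with an adjusted p of 0.0563, and with DESeq2 the adjusted p was 0.0705, so the call was lost under both. OCLN was at 23.4, 21.8, 23.4 and 22.9 CPM in control and 21.9, 25.7, 22.3 and 23.3 CPM in SOX11 libraries. The groups overlapped, and the log2 fold change was 0.03 (95% interval -0.10 to 0.16; adjusted p = 0.796).

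F11R was at 80.5, 77.6, 83.8 and 76.1 CPM in control and 88.1, 102, 82.5 and 84.8 CPM in SOX11 libraries. The groups overlapped, and SOX11 replicate 2 was the highest library. The log2 fold change was 0.17 ± 0.0549 (SE; 95% interval 0.06 to 0.29; adjusted p = 0.0328). The call was lost when control replicate 1, 2 or 4 or SOX11 replicate 1 or 2 was left out, with an adjusted p of up to 0.103 (0.0711 without SOX11 replicate 1, at a log2 fold change of 0.18). TJP1 was the most abundant member per length, at 279, 290, 300 and 311 CPM in control and 287, 293, 295 and 299 CPM in SOX11 libraries. All 4 SOX11 values lay inside the control range. Its log2 fold change was -0.0071 with the narrowest interval of the 9 (-0.07 to 0.06; adjusted p = 0.913).

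**Figure D3:**
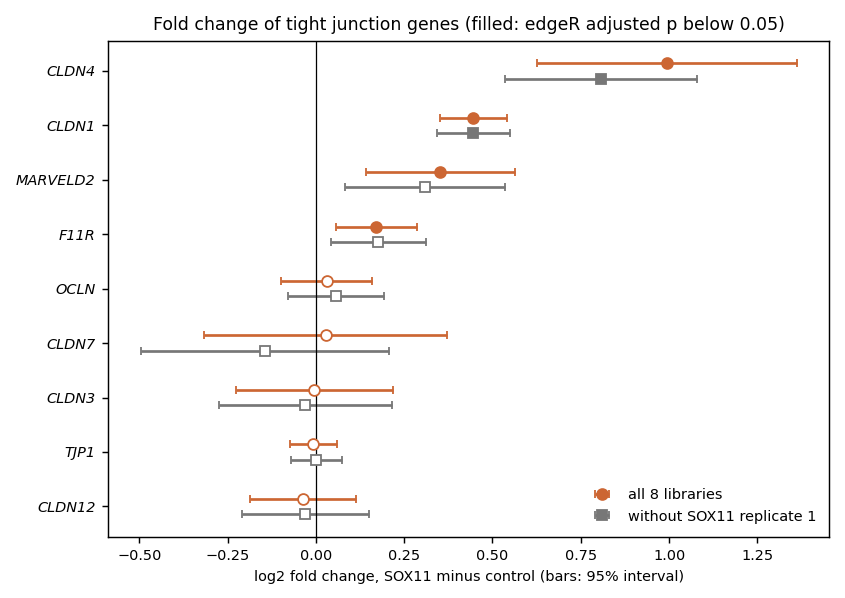
Log2 fold change (horizontal axis, SOX11 minus control) of the 9 members with its 95% interval, for all 8 libraries (orange circles) and without SOX11 replicate 1 (grey squares); filled symbols have an edgeR adjusted p below 0.05. CLDN1 and CLDN4 are filled in both, MARVELD2 and F11R only with all 8 libraries.

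CLDN4 and MARVELD2 each lie near another member, and the ratio of counts within a library is given as a description with no test, since the 2 pairs were chosen after their values were seen. CLDN4 was at 0.579, 0.475, 0.634 and 0.621 counts per count of CLDN3 in control and at 1.48, 1.10, 0.902 and 1.06 in SOX11 libraries. The groups were apart, and the mean log2 ratio was higher by 0.96 with SOX11 (0.82 without SOX11 replicate 1). MARVELD2 was at 0.319, 0.297, 0.284 and 0.287 counts per count of OCLN in control and at 0.430, 0.352, 0.389 and 0.320 in SOX11 libraries. The lowest SOX11 ratio lay next to the highest control ratio, and the mean log2 ratio was higher by 0.32 with SOX11 (0.25 without SOX11 replicate 1).

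Per length, as RPKM (CPM divided by the exon length in kilobases), the control order was TJP1 (26.2 ± 1.24), CLDN1 (17.9 ± 0.964), F11R (15.7 ± 0.667), CLDN12 (8.29 ± 0.508), CLDN3 (6.63 ± 1.15), OCLN (3.39 ± 0.112), CLDN7 (1.53 ± 0.253), MARVELD2 (1.27 ± 0.0841) and CLDN4 (1.03 ± 0.191; SD, n = 4). Neighbours that overlapped over the libraries were CLDN1 with F11R, CLDN12 with CLDN3, CLDN7 with MARVELD2 and MARVELD2 with CLDN4. With these lengths CLDN1 was the most abundant of the claudin members, and CLDN4 the least. The CLDN4 length of 4702 bases includes exons before its RefSeq start at 73830996. RNA made from that start would be shorter and would give CLDN4 a higher value per length. Which CLDN4 transcripts were present was not tested. In SOX11 libraries CLDN1 was at 24.4 ± 1.48 RPKM and TJP1 at 26.0 ± 0.435 RPKM (SD, n = 4) by this exon length. CLDN1 reached the TJP1 range of 25.5 to 26.5 RPKM in SOX11 replicate 3 alone, at 26.5 RPKM. The other SOX11 libraries had 23.0 to 24.4 RPKM of CLDN1. CLDN4 rose from the ninth place to the seventh, at 2.04 ± 0.519 RPKM, ahead of MARVELD2 (1.61 ± 0.157) and CLDN7 (1.55 ± 0.431), and these last 2 neighbouring pairs overlapped. With the longest transcript in place of the union exon length, MARVELD2 and CLDN7 changed places in SOX11 cells. By that length the SOX11 means were 36.9 RPKM for TJP1 and 25.7 RPKM for CLDN1. How close TJP1 and CLDN1 lie thus depends on the length used.

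The table held 15 claudin genes, whose summed level ran from 48.7 to 53.4 RPKM across control libraries and from 54.7 to 60.1 RPKM across those with SOX11. CLDN1 made up 33.3% to 37.3% of that sum in control cells and 38.9% to 44.1% with SOX11. CLDN4 made up 1.73% to 2.33% in control cells and 2.77% to 4.72% with SOX11. The shares of CLDN12 (16.4% ± 0.855 to 13.8% ± 1.47), CLDN3 (13.1% ± 1.80 to 11.4% ± 0.355) and CLDN7 (3.03% ± 0.532 to 2.65% ± 0.699; SD, n = 4) had lower means in SOX11 libraries. These shares describe RNA per length and were not tested. They depend on the exon length taken for each gene, those of CLDN12 and CLDN4 included. With the longest transcript in place of the union exon length, the control mean of CLDN12 was 15.7 RPKM in place of 8.29 RPKM. By the same change CLDN1 was at 18.9 in place of 17.9 RPKM and CLDN4 at 1.16 in place of 1.03 RPKM. The shares were not computed with that length.

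**Figure D4:**
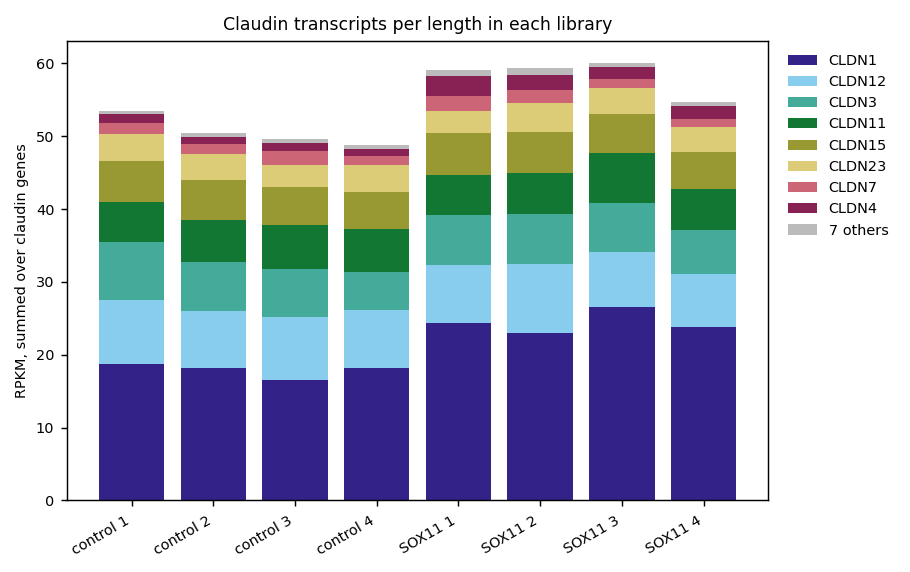
Summed claudin RPKM (vertical axis, from 0) in each of the 8 libraries, stacked by gene, with the 7 lowest of 15 claudins joined. CLDN1 is the largest block everywhere, at 33.3% to 37.3% of the control and 38.9% to 44.1% of the SOX11 columns.

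Of 19 other claudins listed, 10 were in the table, 3 were tested and none was called. CLDN11 was at 21.5 ± 0.775 CPM in control and 22.0 ± 2.25 CPM in SOX11 libraries (adjusted p = 0.798), CLDN15 at 15.5 ± 0.685 and 15.8 ± 0.861 CPM (adjusted p = 0.857), and CLDN23 at 7.58 ± 0.715 and 7.55 ± 1.00 CPM (SD, n = 4; adjusted p = 0.974). Each of these 3 claudins had overlapping groups.

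The rest of the junction was read from 5 lists of 76 genes, of which 55 were tested. Of these 11 were called, 8 higher and 3 lower, with a median log2 fold change of 0.03. That share, 20.0%, equals the share over all genes. Without SOX11 replicate 1, 10 of 56 were called, 6 higher and 4 lower, and JAM3, CRB3, AMOT, AMOTL1, PRKCZ, PARD6G, DLG1 and MYLK kept their calls. Among the other junctional membrane proteins, 2 of 7 were called. JAM3 (JAM-C) rose from 7.08, 5.67, 6.38 and 6.23 CPM in control to 8.62, 8.86, 8.32 and 9.49 CPM in SOX11 libraries (log2 fold change 0.48, adjusted p = 0.000926). The groups were apart. CRB3, a Crumbs polarity protein, fell by 0.26 on the log2 scale (adjusted p = 0.0226), a call lost with DESeq2, without control replicate 1 and without SOX11 replicate 3 (adjusted p up to 0.0895).

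Of the junction scaffolds, 2 of 16 were called, both angiomotins, which bind actin and YAP. AMOT rose from 8.73, 7.88, 7.95 and 7.61 CPM to 13.2, 15.2, 13.7 and 13.2 CPM (log2 fold change 0.78, adjusted p = 6.64e-08). The groups were apart. AMOTL1 rose from 46.1 ± 4.10 to 55.0 ± 2.28 CPM (SD, n = 4; adjusted p = 0.000693). TJP3 (ZO-3), a relative of TJP1 named after its values were seen, was at 3.13 ± 0.678 and 4.17 ± 0.905 CPM (SD, n = 4; adjusted p = 0.0700).

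Of the polarity complex, 4 of 13 genes were called. The atypical protein kinase C gene PRKCZ (log2 fold change 0.22, adjusted p = 0.00496) and its partners PARD6G (0.36, adjusted p = 0.0151) and PARD3 (0.12, adjusted p = 0.0180) were higher, and DLG1 was lower (-0.16, adjusted p = 0.00165). The PARD3 call was lost in 5 of 16 alternatives: with DESeq2, with no filter, and after dropping any of control replicates 1 and 2 and SOX11 replicate 1 (adjusted p up to 0.0666). The PARD6G call was lost with DESeq2 and without SOX11 replicate 4 (adjusted p up to 0.0746). Of the regulators and claudin partners, 3 of 16 were called, 2 of them higher. MYLK, the myosin light chain kinase that tightens the junctional actin ring, rose by 0.23 on the log2 scale (adjusted p = 0.000777). ST14, the protease matriptase, was higher by 0.34 (adjusted p = 0.0489), but its call was lost in 11 of 16 alternatives, among them without each control replicate and without SOX11 replicate 1, 2 or 3 (adjusted p up to 0.217). EPCAM, named after its values were seen, was at 44.5 ± 1.17 and 47.6 ± 1.15 CPM (SD, n = 4; adjusted p = 0.142).

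Of a separate list of transcription factors linked to claudin and occludin genes, 3 of the 9 tested were called. ZEB2, a repressor of epithelial junction genes, was barely expressed, with 5, 6, 4 and 8 counts in control and 22, 27, 27 and 24 counts in SOX11 libraries. The groups were apart (log2 fold change 2.06, adjusted p = 3.93e-06). GRHL3, an epithelial activator, was also barely expressed, with 4 to 17 counts per library (0.448 CPM in control and 0.942 CPM in SOX11 libraries). It was higher by 1.02 (adjusted p = 0.0199). The GRHL3 call was lost with DESeq2 and when control replicate 3 or 4 or SOX11 replicate 1 (adjusted p = 0.0569) or 4 was left out. KLF5 fell from 61.8 ± 5.03 to 52.6 ± 3.34 CPM (SD, n = 4; adjusted p = 0.00295). ZEB1 (34.7 ± 2.87 and 34.3 ± 1.10 CPM; SD, n = 4; adjusted p = 0.872) and SNAI1 (adjusted p = 0.459), named after their values were seen, were not called. ZEB2 and KLF5 kept their calls without SOX11 replicate 1 (adjusted p = 1.85e-05 and 0.0171).

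**Figure D5:**
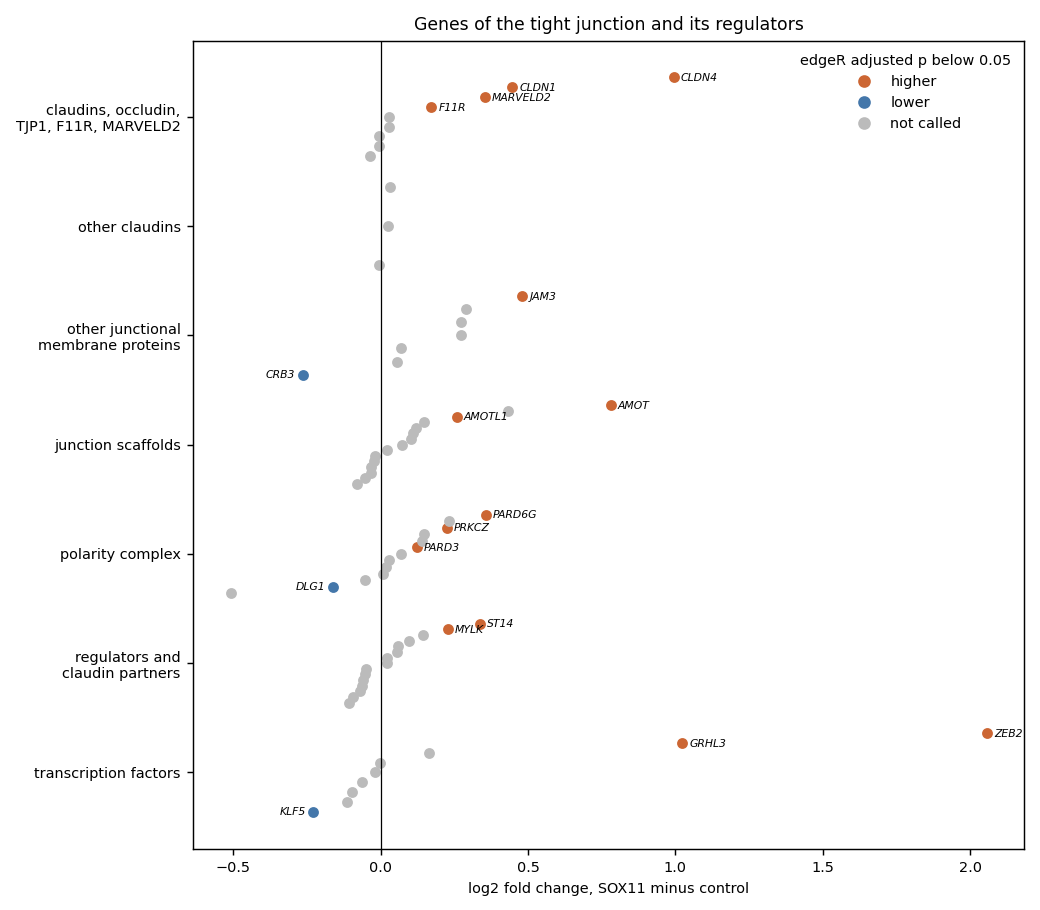
Log2 fold change (horizontal axis, SOX11 minus control) of tested genes of the 7 lists, 1 point per gene reported here; orange is higher and blue lower at an edgeR adjusted p below 0.05, grey is not called, and called genes are named. ZEB2 (2.06), GRHL3 (1.02) and CLDN4 (0.99) lie farthest to the right, and ZEB2 and GRHL3 were barely expressed.

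The 3 genes whose log2 CPM tracked CLDN1 most closely over the 8 libraries were MEGF6 (Pearson r = 0.989; 12.5 ± 0.625 to 17.5 ± 1.50 CPM), SEMA3G (r = 0.989; 0.297 ± 0.0748 to 1.25 ± 0.148 CPM) and CXCL5 (r = 0.988; 1.17 ± 0.193 to 3.36 ± 0.420 CPM; SD, n = 4). The 8 points fall into the 2 groups, and r carries no test. Reads of some members could be split with overlapping genes: CLDN7 shares 38 exon bases with ELP5 on the opposite strand (916 to 1129 counts). On its own strand CLDN7 shares 269 exon bases with AC003688.1, a gene absent from the counts. CLDN12 shares 347 exon bases with GTPBP10 (305 to 426 counts) and 201 with CDK14 (301 to 381 counts) on the same strand. Also on that strand, it shares 371 with AC006153.1 and 276 with AC002456.2, both absent from the counts. F11R shares 1853 exon bases on the same strand with AL591806.3, which had 0 to 3 counts. The counting program, annotation and strand setting were not stated, so how reads in shared bases were assigned is not known. The strand setting bears on the overlap of CLDN7 with ELP5, and a stranded count would not separate the same-strand overlaps. The values of CLDN7, CLDN12 and F11R are thus less certain.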

How the data were processed

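The deposited values are raw counts of Ensembl genes in 8 libraries, which the authors left unnormalized. RNA was extracted with a Maxwell RSC simplyRNA kit and libraries were made with TruSeq Stranded mRNA, per the labels' protocols. Cutadapt, FastQC, STAR 2.7.0e and GRCh38 are named in the submitters' processing notes. The counting program, annotation and strand setting were not stated in the sources used here. Symbols matched 32053 of 32066 identifiers, and 30159 were in GENCODE 29, which gave positions and lengths.

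Genes were filtered with filterByExpr (minimum count 10), scaled with TMM and compared between the 2 groups in edgeR 4.0.16 (R 4.3.3) by its quasi-likelihood test. Benjamini-Hochberg adjustment ran over all genes tested, with calls made under 0.05. DESeq2 1.42.0, limma-voom (limma 3.58.1), other scalings and filters, a replicate block and the leaving out of each library were the alternatives. Within groups, library pairs differed with a chi-square per degree of freedom of 1.39 to 3.01, above sampling noise alone. The members, gene lists and promoter words were chosen with earlier results of these data known. Named were all members, up to 4 called genes per other list with the smallest adjusted p, other claudins with a mean of at least 1 CPM, genes overlapping a member, and the 3 genes most like CLDN1. Some genes of the lists are not reported here one by one, though they enter the counts.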

Additional observations from a re-analysis of the deposited data

Results flagged for a closer look

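CLDN23, a claudin outside the 9 members, had 1 control library far from the other 3: control replicate 3 was at 6.51 CPM and the others at 7.88 to 8.02 CPM. The gap divided by the range was 0.907, above Dixon's 95% critical value for 4 samples. It was the only such case among 52 groups of 4 libraries looked at, and chance gives about 1 in 20. CLDN23 was not called with or without that library.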

How the results depend on the processing

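Under the alternative scalings, filters, tests and the replicate block, the number of members called stayed at 4, except for 3 with DESeq2. Without each library in turn it ran from 2 to 4, lowest without SOX11 replicate 1, and the other tight junction genes called ran from 9 to 13 and all genes from 2466 to 3057. DESeq2 called 7 of the other tight junction genes (5 higher, 2 lower) and 2238 genes in all. With the replicate number as a block, 2899 genes, 4 members and 12 other tight junction genes were called. Deviations of libraries with the same number had correlations of 0.0632, -0.0683, -0.0412 and 0.109. Those with different numbers had correlations of -0.0872 to 0.0832. With 4 libraries per group these small values cannot settle whether the number pairs them. CLDN1 and CLDN4 kept their calls under all 16 alternatives, at log2 fold changes of 0.40 to 0.47 and 0.81 to 1.10. Small changes of genes that were not called changed sign: CLDN3 with upper quartile scaling (0.0026), limma-voom (0.0081) and the replicate block (0.0011). Leaving out libraries in turn, the log2 fold changes ran from -0.10 to 0.092 for CLDN3, -0.096 to 0.059 for CLDN23, -0.14 to 0.14 for CLDN7, -0.034 to 0.019 for TJP1, -0.0058 to 0.054 for CLDN15, -0.021 to 0.057 for OCLN, -0.042 to 0.072 for CLDN11 and -0.12 to 0.0039 for CLDN12. The cause was not tested. Counts of 59 to 213 limit the precision for CLDN4, and counts of 46 to 84 for CLDN7.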

Other observations

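CLDN9, not tested for its low counts, was at 0.368 ± 0.137 CPM in control and 0.738 ± 0.250 CPM in SOX11 libraries (SD, n = 4), with 3 to 18 counts and groups that did not overlap. Of the 8 epithelial markers, 5 fell and 1 rose. ESRP1, a splicing regulator of epithelial cells, rose from 1.51 ± 0.122 to 2.66 ± 0.788 CPM (SD, n = 4; edgeR adjusted p = 0.00497), with 62 counts in SOX11 replicate 1 and 34 to 42 in the other SOX11 libraries. Its more abundant paralog ESRP2 fell from 55.8 to 47.4 CPM (log2 fold change -0.24, adjusted p = 0.00218). Likewise, the keratins KRT8, KRT18, KRT19 and KRT7 of the same marker list fell, with log2 fold changes of -0.51, -0.42, -0.68 and -0.16 (adjusted p of at most 0.00163). CDC42, a GTPase of the polarity complex, had only 15 to 32 counts per library. Whether all of its reads were assigned to it was not tested. On these low counts CDC42 was lower by 0.71 on the log2 scale without SOX11 replicate 1 (adjusted p = 0.0411). It was not called with all 8 libraries (adjusted p = 0.113). These genes were picked after their values were seen.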
